A study of Rattus norvegicus with 20 samples.

Results

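The genes of the mitochondrial respiratory chain and of the ATP synthase were compared between 5 groups of male rats in the arcuate nucleus, a hypothalamic cell group that governs feeding, growth and pituitary hormones. Members were taken by their annotated symbol: the Nduf subunits of complex I, Sdha to Sdhd of complex II, the Uqcr genes and Cyc1 of complex III, Cox4 to Cox8 of complex IV and the Atp5 genes of complex V. Assembly factors and pseudogenes were left out. This gave 82 genes of 16898 annotated ones, and 81 of the 13292 genes that had at least 3 values in each group. Complex I had 38 members, complex II 4, complex III 8, complex IV 15, of which 14 were measured, and complex V 17. The member that was not measured often enough was Cox8c.

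All samples were tissue of Sprague-Dawley rats at P15, with 4 rats in each group. BYS, BYA and BYP rats came from dams given betamethasone, a synthetic glucocorticoid, on gestational day 15 (2 injections of 0.4 mg/kg), and spasms were triggered by NMDA, a glutamate receptor agonist, on P12, P13 and P15. After the first trigger, BYS rats received saline, BYA rats ACTH, a pituitary hormone given as a first treatment of infantile spasms, and BYP rats PMX53, a peptide blocker of the complement receptor C5ar1. BNS rats had the same prenatal betamethasone, no spasms and saline. SNS rats had prenatal saline, no spasms and saline. Every group with spasms was thus also primed with betamethasone, and the last trigger fell on the day the tissue was taken.

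The respiratory chain passes electrons from NADH (complex I) and succinate (complex II) through ubiquinone, complex III and cytochrome c to oxygen at complex IV, and pumps protons across the inner mitochondrial membrane. Complex V, the ATP synthase, lets the protons back and makes ATP. Neurons depend on this chain to restore ion gradients after firing. The nuclear genes of the chain are known to share promoter elements bound by NRF1, by ETS factors of the GABP type and by YY1.

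Each array carried a Cy3 and a Cy5 sample, except those of SNS replicates 1 and 2, which held no second sample of this set. Replicates 1 and 3 of a group were read in Cy3 and replicates 2 and 4 in Cy5, and replicates 1 and 2 shared an array, as did 3 and 4, except in SNS. BYS, BYA, BYP and BNS each lay on a slide of their own, and SNS on 2 slides that held no other group. Slide and group thus cannot be told apart in any comparison. Samples had a value at 34107 to 44249 of 44254 spots. The levels below are log2 intensity with the median of the sample subtracted, and a difference is the log2 difference of group means with the SE of a limma fit over all 20 samples (n = 4 per group, two-sided). A gene was called at a Benjamini-Hochberg adjusted p under 0.05 over all genes. The labels do not say whether the 4 samples of a group came from separate litters. Arcuate markers were present, with all 12 tested genes measured, and a summed linear level of 146 to 216 in BYS, 150 to 241 in BYA, 155 to 250 in BYP, 191 to 295 in BNS and 146 to 217 in SNS. In bulk tissue, fewer cells of a type and less RNA per cell cannot be told apart.

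Between BYS and BNS, 7 of the 81 members were lower in BYS and 2 were higher, a share of 11.1%, against 15.5% of all genes tested. By the methods' t-test, 11 members passed unadjusted, against 19.8% of all genes, and 1 after Benjamini-Hochberg adjustment, against 3.27% of all genes. The members that fell were Ndufv1, Ndufa2, Ndufs5 and Ndufb11 of complex I, Cox7c and Cox4i1 of complex IV and Atp5po of complex V, and those that rose were Uqcrq of complex III and Atp5f1d of complex V. No member of complex II was called. The median difference over the 81 members was -0.13, with 51 below 0 and 30 above, and it was 0.04 when the brightest spot of each gene was used in place of the mean. The median over all genes was 0.18, and over the 1330 genes above the 90th percentile of mean level, to which 68 of the members belonged, it was -0.08. The share of members called was thus not above the background, and their median lay near that of other bright genes.

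The deepest decreases in complex I were those of Ndufv1, the core subunit that binds NADH and FMN, and Ndufa2, an accessory subunit of the same end of the complex. Ndufv1 read 3.40, 3.87, 3.85 and 4.35 in BYS rats, against 5.21, 5.43, 5.12 and 5.48 in BNS rats. All 4 BYS values lay below every BNS value, and the BYA, BYP and SNS values, from 5.07 to 5.67, also lay above them. The difference was -1.45 ± 0.17 (SE, limma adjusted p = 8.26e-05), or 0.37 times the BNS level. Ndufa2 read 1.83, 2.32, 2.34 and 2.94 in BYS rats and 3.58, 3.98, 3.48 and 3.99 in BNS rats. Its groups did not overlap either, and the difference was -1.40 ± 0.16 (SE, limma adjusted p = 6.81e-05).

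Atp5po, the OSCP subunit of the peripheral stalk that holds the catalytic head of the ATP synthase, fell by a like amount. It read 4.43, 4.86, 4.71 and 5.44 in BYS rats, against 6.05, 6.60, 6.02 and 6.71 in BNS rats, with no overlap. The difference was -1.49 ± 0.19 (SE, limma adjusted p = 0.00013). Cox7c, a small structural subunit of cytochrome c oxidase, read 0.23, 0.30, 0.10 and 0.30 in BYS rats and 1.65, 1.82, 1.67 and 1.94 in BNS rats. BYS values were close to each other and far from BNS, and the difference was -1.54 ± 0.29 (SE, limma adjusted p = 0.00235).

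The other called decreases were less deep. Ndufs5, an accessory subunit of complex I, read 4.32, 4.79, 3.98 and 4.32 in BYS rats, against 4.94, 5.29, 4.89 and 5.32 in BNS rats, which did not overlap (-0.76 ± 0.19, limma adjusted p = 0.0162). Ndufb11, an accessory subunit of the membrane arm, read 4.09, 4.72, 4.29 and 4.96 in BYS rats and 4.99, 5.42, 4.91 and 5.36 in BNS rats. Here the Cy5 samples of BYS overlapped with the Cy3 samples of BNS, and within each dye BYS was lower (-0.65 ± 0.15, limma adjusted p = 0.0098).

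Cox4i1, the common isoform of the regulatory subunit 4 of cytochrome c oxidase, read 6.22, 7.09, 5.27 and 6.17 in BYS rats and 6.63, 7.32, 6.44 and 7.19 in BNS rats. The array of BYS replicates 3 and 4 held the low values, while replicates 1 and 2 lay less far below the BNS samples of their dye. The difference was -0.71 ± 0.21 (SE, limma adjusted p = 0.034), and the call was lost when BYS replicate 3 (-0.57, adjusted p = 0.0665), BYS replicate 4 (-0.66, adjusted p = 0.053) or BNS replicate 1, 2 or 4 was left out (-0.71 to -0.69, adjusted p 0.0566 to 0.07).

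The 2 members that were higher in BYS than in BNS differed in brightness. Uqcrq lay at the 30.1st percentile of mean level over all genes and Atp5f1d at the 69.9th. Uqcrq, a small subunit of complex III near the ubiquinone site, read -1.0, -1.45, -0.94 and -1.76 in BYS rats and -1.76, -2.46, -1.39 and -2.54 in BNS rats. The groups overlapped, and the other groups averaged -1.36 in BYA, -1.42 in BYP, -2.04 in BNS and -1.42 in SNS. The difference was 0.75 ± 0.23 (SE, limma adjusted p = 0.0374), and it lost its call when BYS replicate 1, 2 or 3 or BNS replicate 2 or 4 was left out (0.60 to 0.74, adjusted p 0.0546 to 0.0968). Atp5f1d, the delta subunit in the rotor stalk of the ATP synthase, read 1.69, 1.49, 1.59 and 1.48 in BYS rats, against 1.23, 0.60, 1.16 and 0.73 in BNS rats, with no overlap (0.63 ± 0.16, limma adjusted p = 0.0168).

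**Figure D1:**
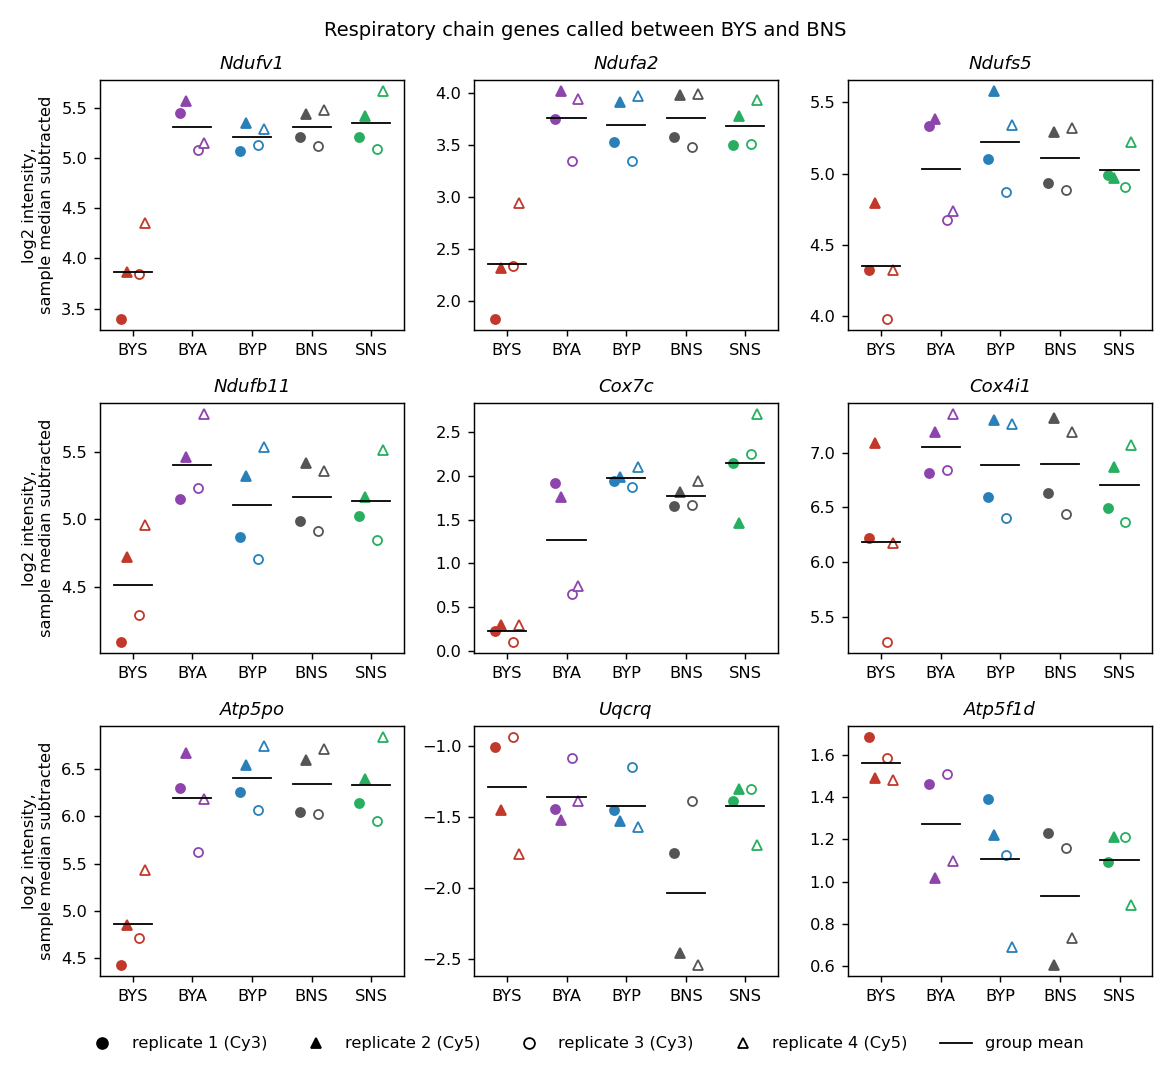
Log2 intensity (sample median subtracted, vertical axes) of the 9 members called between BYS and BNS, by group; each point is 1 rat, circles are Cy3 and triangles Cy5 samples, filled symbols replicates 1 and 2, open symbols replicates 3 and 4, and lines are group means of 4. For Ndufv1, Ndufa2 and Atp5po the 4 BYS rats lie below the other 16, while the replicates 3 and 4 of BYA are also low for Cox7c and Ndufs5.

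The decreases were uneven within each complex, before any account of the place of a spot on the array, which is described below. In complex I, 27 of 38 differences were below 0 (median -0.18), and they ran from that of Ndufv1 to 0.56 ± 0.20 (SE, limma adjusted p = 0.0656) for Ndufb4l1, which the annotation lists as a gene apart from Ndufb4 and whose spots may share signal with it. In complex II, the extremes were the membrane anchor Sdhc (-0.70 ± 0.31, limma adjusted p = 0.12) and the flavoprotein Sdha (0.10 ± 0.16, adjusted p = 0.691), and the median was -0.24. In complex III, 6 of 8 differences were above 0 (median 0.12), with the core protein Uqcrc2 lowest (-0.41 ± 0.28, limma adjusted p = 0.299). Complex IV had a median of -0.03 and complex V of -0.18, with 8 of 14 and 11 of 17 below 0.

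**Figure D2:**
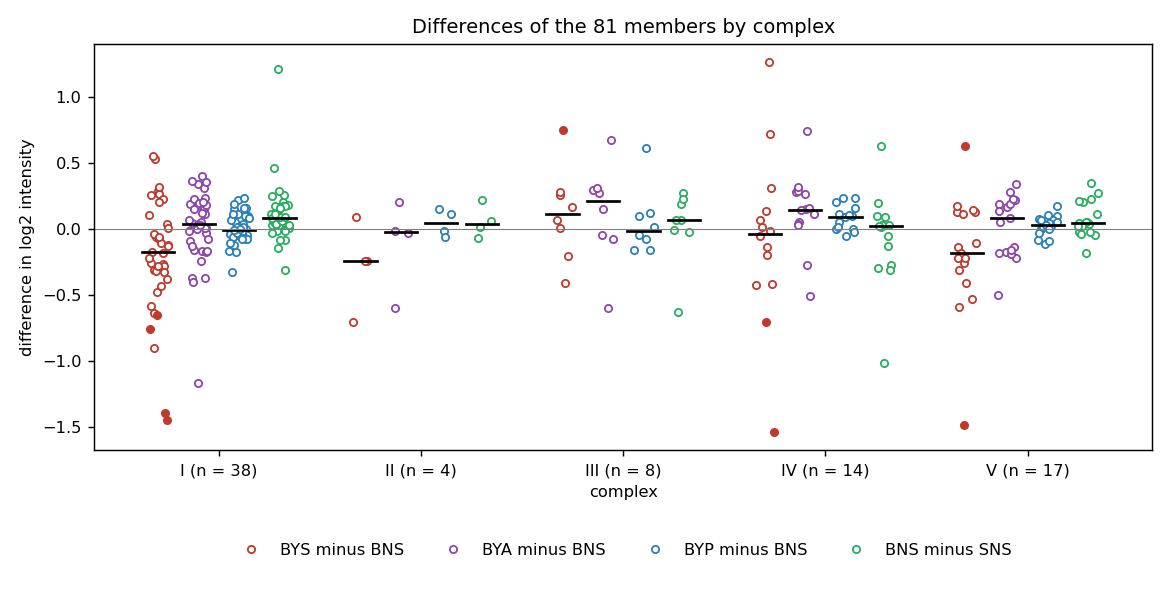
Difference in log2 intensity (vertical axis) of each of the 81 members by complex, for BYS, BYA and BYP against BNS and for BNS against SNS; filled points are called at a limma adjusted p under 0.05 and lines are medians. All filled points belong to BYS against BNS, and the medians of BYP against BNS in the 5 complexes lie between -0.01 and 0.10.

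Subunits of cytochrome c oxidase that come as isoforms were set side by side as differences. These take no account of the place of a spot on the array, which is described below. Cox4i1 fell, while its isoform Cox4i2, known from lung and from low oxygen, gave 0.01 ± 0.26 (SE, limma adjusted p = 0.977). Cox6a1, the common isoform of subunit 6a, gave -0.42 ± 0.16 (adjusted p = 0.0762). Cox6a2, its heart and muscle isoform, had the largest positive difference of the 81 members, 1.27 ± 0.54, and missed the threshold (adjusted p = 0.112). It read 2.98, 3.52, 2.48 and 3.74 in BYS rats, 3.20, 2.10, 2.18 and 3.15 in BYA rats, 2.44, 3.29, 1.37 and 1.20 in BYP rats, 1.79, 1.75, 1.99 and 2.12 in BNS rats and 2.21, 1.74, 1.76 and 3.32 in SNS rats. BYS and BNS did not overlap, and single rats of the other 3 groups reached BYS levels. The other muscle genes measured, Acta1 and Tnnt3, were at -3.38 to -1.25 and -3.01 to -1.13 in BYS rats, and at -3.44 to -1.83 and -3.09 to -1.88 in BNS rats. Ndufa4, listed with complex I by its symbol and now known as a subunit of complex IV, gave 0.27 ± 0.21 (adjusted p = 0.385), Cox7a2 -0.02 ± 0.17 (adjusted p = 0.959) and the testis isoform Cox6b2 -0.14 ± 0.21 (adjusted p = 0.652).

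The position of a spot on the array moved with these differences. Spot numbers followed rows of 85 spots: differences of BYS minus BNS at spots 1 and 85 numbers apart correlated at 0.433 and 0.434 over 23179 and 23006 pairs, and those 42 apart at -0.019. For each spot, the neighbouring spots within 5 rows and 5 columns were summarised by their median, its own spot left out. The neighbours' difference of BYS minus BNS ran from -1.09 to 0.64 over the 32107 complete spots, low in the upper and central part and high toward the lower right. That of BYA minus BNS ran from -0.50 to 0.40, and that of BYP minus BNS from -0.17 to 0.39. Each of the neighbours' medians mixes genes of all kinds, and the part of position in the members' results is given below by its values.

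**Figure D3:**
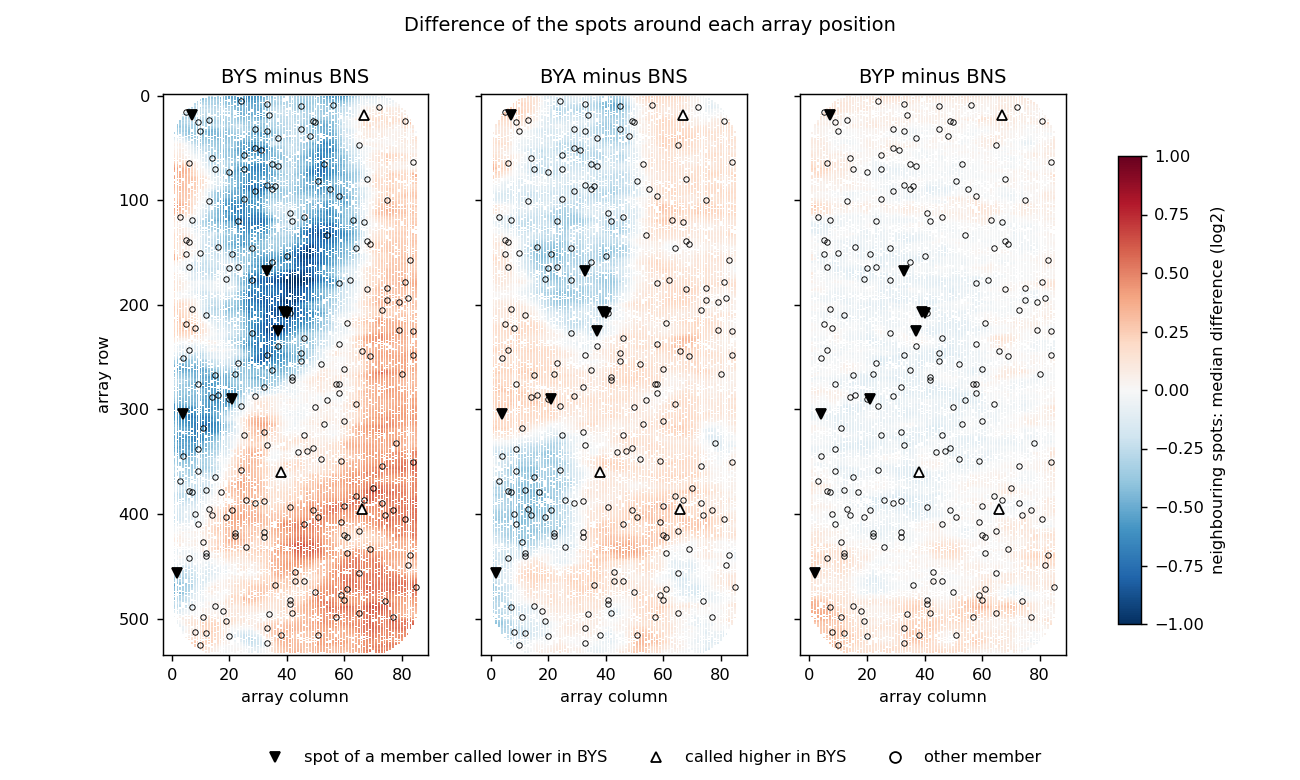
Median difference in log2 intensity of the neighbouring spots (colour) at each row and column of the array, for BYS, BYA and BYP against BNS; triangles mark spots of members called between BYS and BNS and circles those of other members. The spots of Ndufv1, Ndufa2, Atp5po and Cox7c lie in the central low area of BYS, where neighbours read from -0.90 to -0.55, and the map of BYP against BNS is nearly even.

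Ndufv1, Ndufa2, Atp5po, Cox7c, Cox4i1 and Ndufb11 were each read by 1 spot. The neighbours' difference was -0.90 around the spot of Ndufv1, -0.86 around that of Ndufa2, -0.90 around that of Atp5po, -0.55 around that of Cox7c, -0.59 around that of Cox4i1 and -0.47 around that of Ndufb11. The spots of Ndufv1 and Ndufa2 lay next to each other, in rows 207 and 208 and columns 39 and 40. Of the 5 members whose neighbours read under -0.5, all 5 were called lower, and of the 40 whose neighbours read above 0, none was called lower and 2 were called higher. Over the 225 complete spots of members, the difference of the spot and that of its neighbours correlated at 0.866 for BYS minus BNS, at 0.655 for BYA minus BNS and at 0.348 for BYP minus BNS. These are descriptions over spots of the same 8 samples, which are not independent.

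Genes with many spots were read at many places of the array. For 14 members, chosen by having 9 or more spots, the SD of the BYS minus BNS difference over the spots of a gene had a median of 0.454, against 0.203 for BYA minus BNS, 0.061 for BYP minus BNS and 0.111 for BNS minus SNS. Sdhd, the small membrane anchor of complex II, ran from -1.46 to 0.38 over its 10 spots, with a median of -0.06. Cox7b, a small subunit of complex IV, ran from -1.33 to 0.53, and Ndufb9 of complex I from -0.88 to 0.83. Of these genes' spots, the 18 with neighbours under -0.5 had a median difference of -0.78, and the 70 with neighbours above 0 had a median of 0.21. After the neighbours were subtracted, the 2 medians were -0.20 (single spots from -0.73 to 0.41) and -0.01 (from -0.38 to 0.39). Cox8a, with all of its 10 spots between -0.06 and 0.31, was the most even of the 14.

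**Figure D4:**
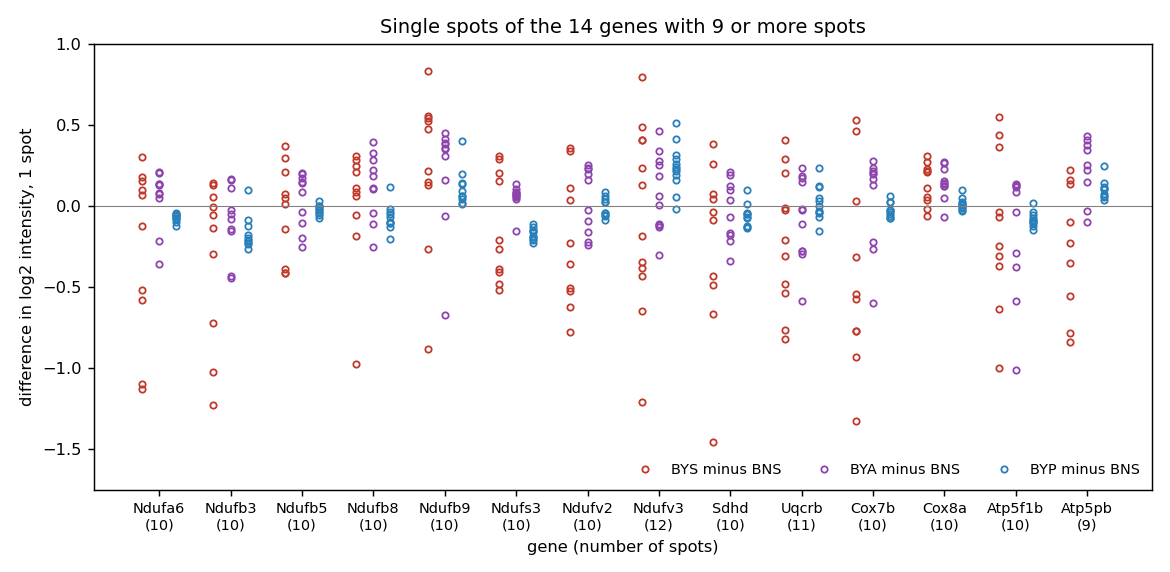
Difference in log2 intensity (vertical axis) at each single spot of the 14 members with 9 or more spots, for BYS, BYA and BYP against BNS. Spots of 1 gene span from -1.46 to 0.38 in BYS for Sdhd, while in BYP the 10 spots of Ndufa6 stay between -0.12 and -0.04.

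With the neighbours' median subtracted from every spot, an alternative chosen after seeing the data, 5 members were lower and 1 higher in BYS than in BNS, and 11.1% of all genes were called. Cox7c kept the largest difference (-0.99 ± 0.26, limma adjusted p = 0.0249), followed by Atp5po (-0.59 ± 0.17, adjusted p = 0.038), Ndufv1 (-0.55 ± 0.15, adjusted p = 0.0321), Ndufs5 (-0.54 ± 0.15, adjusted p = 0.0334) and Ndufa2 (-0.54 ± 0.17, adjusted p = 0.0451). Uqcrq stayed called (0.66 ± 0.19, adjusted p = 0.0328). Of the other complex III members, Cyc1 (-0.15), Uqcrh (-0.19) and Uqcrfs1 (-0.11) now lay below 0, where they had been above it. Uqcrb (-0.06) and Uqcrc2 (-0.29) stayed below 0, and Uqcr11 (0.16) and Uqcrc1 (0.02) above. The calls of Cox4i1 (-0.12, adjusted p = 0.684), Ndufb11 (-0.19, adjusted p = 0.393) and Atp5f1d (0.41, adjusted p = 0.0759) were lost. Beside the spots of Ndufv1 and Ndufa2, in row 208 and column 41, lay a spot of Sdhd. It read -1.46, with neighbours at -0.86, and gave -0.60 with them subtracted, while the median over the 10 spots of Sdhd was -0.06 as deposited. Whether the subtraction removed all of the part of position at these spots was not tested. The 2 spots of Ndufs5 lay far apart, in rows 18 and 456, with neighbours at -0.24 and -0.19, and read -0.66 and -0.85, so this decrease was seen at 2 separate places. The 2 spots of Atp5f1d read 0.80 and 0.46, with neighbours at 0.02 and 0.43. Around the single spots of the isoforms Cox6a1 and Cox6a2, the neighbours read -0.40 and 0.49. With them subtracted, Cox6a1 gave -0.02 (adjusted p = 0.952) and Cox6a2 gave 0.78 (adjusted p = 0.241).

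**Figure D5:**
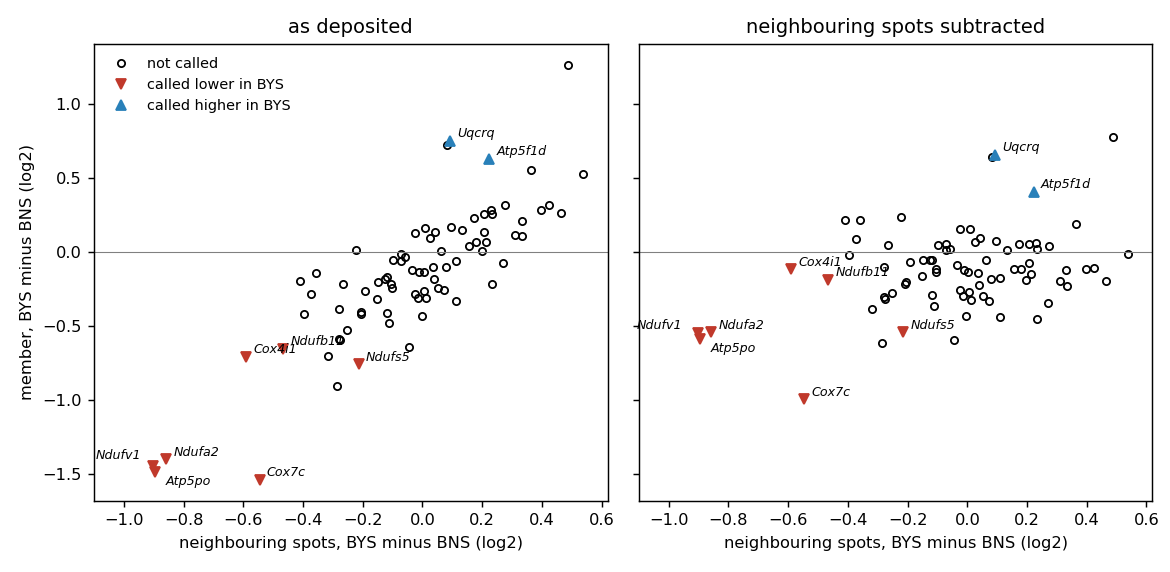
Difference of BYS minus BNS for each of the 81 members (vertical axis, log2) against the mean difference of the spots around its own (horizontal axis, log2), as deposited and with the neighbours subtracted. In the left panel members follow their neighbours, and in the right panel Cox7c at -0.99 stands lowest.

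Against SNS, the same BYS samples gave 6 members lower and none higher, with 7.58% of all genes called. With samples centred on their 75th percentile, 7 were lower and 1 higher. The share of all genes in that fit is not given here. The 6 lower members with median centring were Cox7c (-1.85 ± 0.27, limma adjusted p = 0.00036), Ndufv1 (-1.47 ± 0.16, adjusted p = 4.86e-05), Atp5po (-1.46 ± 0.18, adjusted p = 0.000126), Ndufa2 (-1.32 ± 0.15, adjusted p = 5.58e-05), Ndufs5 (-0.66 ± 0.19, adjusted p = 0.0365) and Ndufb11 (-0.62 ± 0.14, adjusted p = 0.0142). The call of Ndufs5 was lost when any of SNS replicates 1, 3 and 4 or BYS replicates 1, 3 and 4 was left out (-0.66 to -0.60, adjusted p 0.0527 to 0.103), and that of Ndufb11 without SNS replicate 1 (-0.55, adjusted p = 0.0602). The median over the members was -0.10, against 0.05 over all genes. With the neighbours subtracted, Cox7c alone of the members was called (-1.33 ± 0.25, adjusted p = 0.0188), with 0.993% of all genes called.

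ACTH and PMX53 were each compared with saline in rats with spasms, on the same BYS samples. In BYA against BYS, 11 members were higher and none was lower, with 8.63% of all genes called. With centring on the 75th percentile, 8 were higher and 1 lower, and the share of all genes in that fit is not given here. Of the 11, Ndufv1 (1.45 ± 0.17, limma adjusted p = 7.01e-05), Ndufa2 (1.41 ± 0.16, adjusted p = 5.01e-05) and Atp5po (1.33 ± 0.19, adjusted p = 0.000326) differed most. Ndufb11, Cox4i1, Cox7c and Ndufs5 were again among the called, with differences from 0.68 to 1.03. The remaining 4 had not been called against BNS. They were Ndufa13, an accessory subunit of complex I (0.71 ± 0.17, adjusted p = 0.015), Atp5f1e, the epsilon subunit of the rotor stalk (0.68 ± 0.15, adjusted p = 0.00724), Cox6a1 (0.58 ± 0.16, adjusted p = 0.0298) and Atp5pb, the b subunit of the peripheral stalk (0.49 ± 0.14, adjusted p = 0.0391). The call of Ndufs5 was lost without BYS replicate 1, 3 or 4 or BYA replicate 1, 2 or 3 (0.56 to 0.68, adjusted p 0.0547 to 0.0698), that of Atp5pb without BYS replicate 1, 2 or 3 or BYA replicate 1 or 4 (0.42 to 0.51, adjusted p 0.0501 to 0.0779) and that of Cox6a1 without BYS replicate 2 or BYA replicate 1 (0.49 to 0.53, adjusted p 0.0549 to 0.058).

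Cox7c did not move as 1 group in BYA. It read 1.92 and 1.76 in BYA replicates 1 and 2, which shared an array, and 0.65 and 0.74 in replicates 3 and 4 on the other array, against 0.10 to 0.30 in BYS rats. Its neighbours on the array of replicates 3 and 4 were also low, at -0.13 and -0.44 against their mean over all samples, and at 0.25 and 0.08 on the array of replicates 1 and 2. Sdhc showed the same split, with 3.64 and 3.64 in replicates 1 and 2 and 2.14 and 2.41 in replicates 3 and 4, where its neighbours read -0.49 and -0.73. So did Uqcrc2, with 4.53 and 4.76 against 3.21 and 3.78. The call of Cox7c in BYA against BYS was lost without BYA replicate 1 (0.87, limma adjusted p = 0.0606), BYA replicate 2 (0.98, adjusted p = 0.0594), BYS replicate 2 (1.03, adjusted p = 0.0548) or BYS replicate 3 (1.01, adjusted p = 0.0568).

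In BYP against BYS, 8 members were higher and 1 was lower, with 9.68% of all genes called. With centring on the 75th percentile, 6 were higher and 2 lower, again without a share of all genes given here. Cox7c read 1.94, 1.98, 1.87 and 2.10 in BYP rats, against 0.23, 0.30, 0.10 and 0.30 in BYS rats, and differed most (1.74 ± 0.29, limma adjusted p = 0.00111). Atp5po (1.54 ± 0.19, adjusted p = 0.000127), Ndufv1 (1.34 ± 0.17, adjusted p = 0.000168) and Ndufa2 (1.33 ± 0.16, adjusted p = 0.000106) followed. Ndufs5, Cox4i1, Ndufb11 and Cox6a1 differed by 0.51 to 0.87. Ndufa7, an accessory subunit of complex I, was lower (-0.64 ± 0.20, adjusted p = 0.0491). It read 1.46, 1.64, 0.91 and 0.96 in BYP rats and 1.78, 1.84, 1.73 and 2.18 in BYS rats, so the 2 low values were those of the array of replicates 3 and 4. Its call was lost in 7 of the 8 fits that left out a rat of either group, that of Cox6a1 in 6 (0.46 to 0.51, adjusted p 0.0626 to 0.114), that of Cox4i1 in 5 (0.57 to 0.70, adjusted p 0.0686 to 0.0986) and that of Ndufb11 in 2, without BYP replicate 1 or 4 (0.52 to 0.58, adjusted p 0.0548 to 0.0609). Cox6a1 lost it without BYS replicate 1, 2 or 3 or BYP replicate 1, 2 or 4, and Cox4i1 without BYS replicate 3 or 4 or BYP replicate 1, 2 or 4.

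By the methods' t-test, unadjusted, 10 members passed for BYS against SNS (15.4% of all genes) and 5 for BYA against BYS (12.1% of all genes). For BYP against BYS, 9 passed, against 1872 of all 13292 genes. After Benjamini-Hochberg adjustment, 0, 0 and 1 members passed in these 3 comparisons, against 152, 11 and 52 of all genes. With the neighbours subtracted, 3 members were higher in BYA than in BYS (Ndufv1 0.72, Ndufa2 0.68 and Ndufa13 0.51) and 2.72% of all genes were called. In BYP against BYS, 2 members were higher (Cox7c 1.26 and Atp5po 0.70) and 4.73% of all genes were called.

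Among the groups without BYS, no member was called. In BYA against BNS the median over the members was 0.07 (0.05 over all genes) and 0.241% of all genes were called. In BYP against BNS it was 0.02 (0.00 over all genes), with 0.0301% called. In BYP against BYA it was -0.07 (-0.05 over all genes), with 0.0301% called. In BNS against SNS, which asked what prenatal betamethasone changed without spasms, it was 0.06 (-0.07 over all genes), with 0.00752% called, and with SNS replicate 2 taken as Cy3 it was -0.07. At an unadjusted p under 0.05 limma listed 4, 1, 5 and 3 members in these 4 comparisons, against 9.74%, 5.45%, 4.61% and 14.8% of all genes. The methods' t-test, unadjusted, listed 0, 0, 1 and 0 members, against 8.87%, 6.37%, 4.14% and 6.79% of all genes.

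The per-sample median over all members followed the dye. Each gene was set against its own mean over the 20 samples. The Cy5 samples had medians of 0.18 and 0.28 in BYS, 0.25 and 0.25 in BYA, 0.28 and 0.28 in BYP and 0.26 and 0.28 in BNS. The Cy3 samples had -0.33 and -0.40 in BYS, 0.08 and -0.14 in BYA, -0.06 and -0.29 in BYP and -0.14 and -0.23 in BNS. SNS replicate 2, labelled Cy5, read -0.01, between those of the Cy3 replicates 1 and 3 (-0.11 and -0.16) and that of the Cy5 replicate 4 (0.31). SNS replicate 2 had a value at 44159 spots, against 42678 to 44249 in the Cy3 samples and 34107 to 39968 in the other Cy5 samples. Its dye label is in doubt, and with it taken as Cy3, 17 members instead of 9 were called between BYS and BNS. The share of all genes called in that fit is not given here, so the 17 cannot be set against it.

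The promoters of the members were read from RefSeq (build GRCr8, 250 bases before to 50 after the start), which held 72 of the 82. The letters GCGCANGCGC, a form of the NRF1 element, were found on either strand in 14 of the 72 (19.4%), against 4.25% of all 33469 promoters. The letters CCGGAAG, the core of ETS sites, were in 21 (29.2%, against 8.75%), and AAGATGG, the core of a YY1 element, was in 17 (23.6%, against 7.01%). None of the 3 contains another. All 11 matches in members called in any comparison are shown, because these are the genes whose values are given above. Capitals mark the matched letters, 10 bases on each side are in lower case, and positions count from the start of the gene.
Atp5po, NRF1 form at -59, minus strand, chr11:44657523-44657552: acgccgacgcGCGCATGCGCtctggcatca
Atp5po, YY1 core at 2, minus strand, chr11:44657466-44657492: tgcccgggaaAAGATGGccgcaccagc
Ndufs5, NRF1 form at -129, minus strand, chr5:141264512-141264541: gccgctggctGCGCAGGCGCaaaccgctct
Uqcrq, ETS core at -22, minus strand, chr10:38089984-38090010: tccgctcctcCCGGAAGtgacgtgcaa
Ndufa13, ETS core in reverse at -126, plus strand, chr16:19560390-19560416: gaatgactgaCTTCCGGaccgcaaaag
Ndufa13, ETS core at -9, plus strand, chr16:19560507-19560533: ccgctggccaCCGGAAGtcgcggatcc
Cox4i1, ETS core in reverse at 4, plus strand, chr19:65630376-65630402: ccgtcttgctCTTCCGGtgcgggaccc
Cox4i1, ETS core in reverse at 24, plus strand, chr19:65630396-65630422: gggacccgctCTTCCGGtcgcgagcac
Ndufa2, ETS core in reverse at -146, minus strand, chr18:28632014-28632040: ccttccgtgcCTTCCGGcttccttcgc
Ndufa2, YY1 core at 27, minus strand, chr18:28631842-28631868: tttgctagcaAAGATGGcggccgcaag
Cox7c, YY1 core in reverse at 20, minus strand, chr2:18579135-18579161: gctgtagttcCCATCTTccctttcggt

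Of the 72 promoters of members, 42 held at least 1 of the 3 elements. Called members with a match held different elements. Atp5po had the NRF1 form and the YY1 core, and Ndufa2 the ETS and the YY1 core. No match was found for the called members Ndufv1, Ndufb11, Atp5f1d, Atp5f1e, Atp5pb, Cox6a1 and Ndufa7, though not every member had a promoter to read. The ETS core stood in Uqcrq, which was higher in BYS than in BNS, and in Cox4i1 and Ndufa2, which were lower. Members that were not called held them too, with the YY1 core in Sdhc (-0.70, limma adjusted p = 0.12) and the NRF1 form at 3 places in Sdha (0.10, adjusted p = 0.691). A match in these letters is a description of the window only.

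Genes around the chain were taken from lists chosen with earlier results of these data known. Their counts are a description, given beside the 15.5% of all genes called between BYS and BNS. Of 33 assembly factors, 5 were lower and 2 higher in BYS than in BNS (median 0.03). The lowest was Sdhaf2, which helps attach FAD to Sdha (-1.36 ± 0.22, limma adjusted p = 0.000674), and Cox17, the copper chaperone of complex IV, gave -0.74 ± 0.14 (adjusted p = 0.00283). Of 19 genes of electron carriers, ADP/ATP exchange and outer membrane channels, 5 were lower and none higher (median -0.56). Slc25a4, the heart and muscle type ADP/ATP carrier, had the largest decrease of these lists (-1.99 ± 0.21, adjusted p = 3.85e-05), and Coq7, an enzyme of ubiquinone synthesis, gave -0.86 ± 0.13 (adjusted p = 0.000607). Of 18 regulators of mitochondrial biogenesis, 3 were lower: Pprc1, a coactivator of the PGC-1 family (-1.16 ± 0.24, adjusted p = 0.00507), Tfam, which packs and transcribes mitochondrial DNA (-0.72 ± 0.17, adjusted p = 0.0106), and Mterf1 (-0.83 ± 0.24, adjusted p = 0.0263).

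The neighbours of these spots were low as well, at -0.78 around Slc25a4, -0.47 around Sdhaf2, -0.94 around Pprc1 and -0.23 around Tfam. With them subtracted, Slc25a4 (-1.21, limma adjusted p = 0.00211), Sdhaf2 (-0.88, adjusted p = 0.013) and Tfam (-0.49, adjusted p = 0.0369) stayed called, while Pprc1 (-0.22, adjusted p = 0.363), Coq7 (-0.17, adjusted p = 0.225) and Cox17 (-0.34, adjusted p = 0.0608) were not. Mterf1 (-0.57, adjusted p = 0.0236) also stayed called, and the assembly factor Cox15 was called higher (0.65, adjusted p = 0.00486). In that setting 1 of the 33 assembly factors was lower and 2 were higher. Of the 19 carrier and channel genes 2 were lower, and of the 18 regulators 3, with 11.1% of all genes called. None of 18 citric acid cycle genes was called (median 0.07). Of 11 genes of peroxide and superoxide defence, Prdx3 was lower (-0.97 ± 0.22, adjusted p = 0.0086) and Txnrd2 higher (0.47 ± 0.13, adjusted p = 0.0252), and both calls were lost with the neighbours subtracted (-0.30, adjusted p = 0.241, and 0.12, adjusted p = 0.478). Of 25 genes of glycolysis and lactate transport, only Slc16a1, a lactate carrier, was called (-1.50 ± 0.21, adjusted p = 0.000272). It stayed called with the neighbours subtracted (-0.67, adjusted p = 0.0083), and Slc16a3 was then called higher (0.58, adjusted p = 0.0206). The subunits that mitochondrial DNA encodes were not analysed here.

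Markers of other cell types moved between BYS and BNS, and their part in the members' results was not tested. Of 7 oligodendrocyte genes, 3 were higher in BYS, with a median difference of 1.53, and the summed linear level of the list was 10.6 to 24 in BYS rats and 10.6 to 13.7 in BNS rats. Of all genes, 15.5% were called. The 3 were Ermn, Mog and Mobp, at the 23.1st, 46.8th and 59.9th percentile of mean level. Mag (1.22) and Cldn11 (1.53) were above 0 and not called. The brighter Mbp (87th percentile) gave -0.44 (limma adjusted p = 0.357), and Cnp (72.2nd) gave -0.03 (adjusted p = 0.956). Of 5 endothelial genes, 2 were higher, with sums of 8.46 to 12.3 in BYS and 7.93 to 9.60 in BNS. Of 12 arcuate genes, Agrp, the peptide of feeding neurons, was lower in BYS (-0.89 ± 0.28, limma adjusted p = 0.0424), and of 10 neuronal genes, Elavl4 was lower (-0.59 ± 0.18, adjusted p = 0.0395). The summed level of the neuronal list was 141 to 236 in BYS and 153 to 232 in BNS. With the neighbours subtracted, the calls of Agrp (-0.35, adjusted p = 0.301) and Elavl4 (-0.36, adjusted p = 0.113) were lost, as were those of the 2 endothelial genes. In that setting 3 oligodendrocyte genes were called, with 11.1% of all genes called. Of the arcuate genes, Pomc was then called lower (-0.75, adjusted p = 0.0494) and Slc6a3 higher (1.13, adjusted p = 0.0136). Of the microglia genes, Csf1r was then called higher (0.76, adjusted p = 0.035). As deposited, none of the astrocyte, microglia, blood, pituitary, choroid plexus or muscle genes tested was called between BYS and BNS.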

How the data were processed

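RNA of 20 arcuate nuclei was hybridised to Agilent rat arrays (11 arrays on 6 slides), with a pair of samples, 1 per dye, on an array. SNS replicates 1 and 2 each had an array without a second sample of this set. Scans were read by the authors with Feature Extraction 10.7.3.1 of Agilent, as the submitters' processing notes name it. The deposited intensity of a spot is linear and relative. Background correction, spot filter and normalization: not given in the sources used here. Gene names came from accessions for 27335 spots, from symbols for 3514 and from synonyms for 785, matched to RefSeq rat genes, while 12608 spots stayed unnamed.

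After log2 transformation, each sample was centred on its median over the 12493 complete genes, and the spots of a gene were averaged. The test of all 13292 genes was limma (version 3.58.1, R 4.3.3) with group and dye as terms and the array as a random block (correlation 0.436), over all 20 samples. The adjusted p of a gene is always limma's, unless another test is named. The fit was tested on simulated data. Values were handled with pandas 2.3.3 and numpy 2.4.6, and plots drawn with matplotlib 3.10.9 in Python 3.11.15. The number of arrays limits the precision.

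Genes were named by rule: members called in any of 8 contrasts, the extremes of each complex in BYS against BNS, and isoform pairs. Genes with 9 or more spots, the other members of complex III, oligodendrocyte genes, and Acta1 and Tnnt3 were named after their values were seen. The same holds for Pomc, Slc6a3, Csf1r and Slc16a3. The members and lists were chosen with earlier results of these data known. Alternatives changed the block, dye, centring, spot choice, filter, array position and test, and left out each rat. The p-values measure the spread between these samples, which may share a litter. The study's methods also use a fold threshold set for each gene, which was not applied.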

Additional observations from a re-analysis of the deposited data

Results flagged for a closer look

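In 115 groups of 4 values, 5 for each of the 23 named members, 2 held 1 rat far from the other 3 by Dixon's ratio, whose critical value of 0.829 is passed by chance in about 1 in 20 groups. Both were SNS replicate 4. Ndufa4 read 5.998 there, against 5.21 to 5.29 in the other 3 SNS rats (ratio 0.904). Ndufb4l1 read 3.899, against 3.32 to 3.40 (ratio 0.854). Replicate 4 was read in Cy5 and the SNS replicates 1 and 3 in Cy3.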

How the results depend on the processing

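Between BYS and BNS, 9 members were called. The count was 20 without the array block, 3 with the slide as a random block, 17 with SNS replicate 2 taken as Cy3, 19 with the compared groups alone, 16 without the dimmest 25% of genes and 3 in Cy5 samples alone, and 7 to 14 when 1 rat was left out (14 without BYS replicate 4). For BYS against SNS (6 called) it was 14 without the array block, 18 with SNS replicate 2 as Cy3, 16 after quantile normalization, 3 with the local trend removed in blocks, 1 with neighbouring spots removed, 10 by the methods' t-test and 0 in Cy5 samples, and 4 to 13 with 1 rat left out (13 without SNS replicate 2). For BYA against BYS (11 called) it was 17 without the array block, 4 with the slide block, 4 with the groups alone, 5 with blocks removed, 3 with neighbours removed, 5 by the methods' t-test and 0 in Cy5 samples, and 7 to 12 with 1 rat left out (7 without BYA replicate 1). For BYP against BYS (9 called) it was 19, 3 and 15 without the array block, with the slide block and with SNS replicate 2 as Cy3, 4 and 2 with blocks and neighbours removed and 0 in Cy5 samples, and 5 to 9 with 1 rat left out (5 without BYP replicate 1 or BYP replicate 4). Of the comparisons with 0 called, BYA against BNS gave 1 without the array block and 1 after quantile normalization, BNS against SNS gave 1 without the array block and 1 in Cy5 samples, and BYP against BYA gave 1 by the methods' t-test. The cause of these changes was not tested, but a single dye leaves 2 rats per group. Counts in this section are of members alone. For most alternatives the share of all genes called is not given here, so a higher or lower count may not be particular to the members.

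Ndufv1, Ndufa2 and Atp5po were called between BYS and BNS in each of 15 alternatives (unadjusted in the methods' t-test), with differences of -1.55 to -0.54, and whenever 1 rat was left out. Cox7c was called in 13 of 15 and missed with the slide block (adjusted p = 0.0598) and in Cy5 samples (adjusted p = 0.0658). No called difference turned its direction. Quantile normalization moved the median of all genes in that comparison to 0.05, against 0.18. The replicate numbers share a dye and do not pair the rats, and with a replicate block 13 members were called between BYS and BNS.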
